A study of Mus musculus with 110 samples.

Results

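IAA, a plant auxin, was compared with no treatment (NT) in a mouse pro-B cell line that carried OsTIR1 and, as far as the labels say, no degron tag. The members were chosen by title: 8 libraries with IAA and 8 without, or 16 of the 98 full junction libraries among 110 libraries in the series. Every library lists junctions from a bait at the JH4 segment of the immunoglobulin heavy chain locus (Igh), read by linear amplification and sequencing. Both groups came from v-Abl transformed pro-B cells with an Ostir1 knock-in, an Emu-Bcl2 transgene and RAG2 deficiency, which received RAG2 by nucleofection. STI-571, which blocks the Abl kinase and so arrests the cells, was given to all at 3 µM, over 4 days. The IAA group also had IAA at 500 µM for 6 h beforehand and throughout. Each group held 4 replicates of 2 libraries, named a and b. The labels do not say where OsTIR1 was inserted, whether the line is a single clone, or whether replicates were separate cultures, so p-values measure only the spread between these samples. The files hold DNA junctions and no expression, so the cell type could not be checked against markers.

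V(D)J recombination assembles the heavy chain gene from separate segments. The RAG endonuclease, bound at the JH segments, first joins a D segment to a JH segment and then a VH segment to the DJH join. It cuts at recombination signal sequences, each a heptamer and a nonamer held apart by a spacer. RAG reaches distant segments as chromatin is drawn past the JH end by cohesin, and CTCF-bound elements such as IGCR1, between the D and VH segments, slow that passage. Degron experiments remove such factors: with auxin, OsTIR1, a rice F-box protein, marks a tagged protein for breakdown. This line holds the receptor alone, and so asks what IAA does to joining in cells with OsTIR1 when nothing is tagged.

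The bait reads showed what separated a from b. Next to the cloning primer, downstream of Ighj4, they held different bases, given here because the change moves every position of a library. Capitals mark the bases that differ. The bone marrow sequence lies at chr12:114666661-114666700 in mm9, 25 bases from Ighj4 (chr12:114666725-114666778, minus strand).
Bone marrow pro-B cells: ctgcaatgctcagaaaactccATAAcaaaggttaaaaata
a libraries: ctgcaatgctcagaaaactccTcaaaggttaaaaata
b libraries: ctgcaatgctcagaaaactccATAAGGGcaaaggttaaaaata
The a sequence had 3 bases fewer and the b sequence 3 more, and all 8 libraries of each kind carried their form. Deposited positions were shifted by 3 bases in opposite directions, and this was removed. The a and b libraries of a replicate shared a read-start tag in 8 of 8 cases and shared 0 read names. What the letters stand for is not stated in the labels. The VH region took more of the junctions in a than in b in 8 of 8 replicates (4.53% against 4.12%; exact sign-flip p = 0.00781, Benjamini-Hochberg 0.0130 over 5 measures), and the difference between IAA and NT was −1.27 percentage points in a and −1.14 in b.

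D segments were the main partners of the bait, and the ends that entered the junctions are shown as sequenced, from the JH4 side. Lower case gives the coding bases and then, between the capital heptamer and nonamer, the spacer of the far signal, the one that stays in the DJH join for the later step. Segments without a clear symbol are named by type and by their order among the 23 tested segments, counted from JH, with their position on the hybrid chromosome 12 of the files.
Ighd4-1, position 114673089: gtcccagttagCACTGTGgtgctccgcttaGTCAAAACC
D3, position 114690286: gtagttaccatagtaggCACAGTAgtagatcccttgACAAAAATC
D5, position 114700407: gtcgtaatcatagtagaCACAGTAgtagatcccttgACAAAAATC
D6, position 114705399: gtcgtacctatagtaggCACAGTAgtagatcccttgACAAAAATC
D9, position 114714725: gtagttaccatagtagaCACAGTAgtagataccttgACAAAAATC
Ighd2-3, position 114727777: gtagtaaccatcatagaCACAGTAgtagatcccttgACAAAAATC
Ighd1-1, position 114734544: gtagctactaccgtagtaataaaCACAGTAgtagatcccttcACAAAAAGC
D3, D4, D5, D6, D8, D9, Ighd2-7 and Ighd2-3 had 17 coding bases and the same far heptamer and nonamer. D5 and D8 had identical coding bases. Ighd1-1, the D segment known as DFL16.1, had 23 coding bases, and Ighd4-1, known as DQ52, had 11. The signal on the JH side, which RAG cuts in D-to-JH joining, was lost from the reads and was taken from mm9 where the read matched it at a single place.
Ighd4-1, JH side: GGTTTTTGTtgagccacgtgtCACCGTG
D5, JH side: GGTTTTTGTtgctggatatatCACTGTG
Ighd2-3, JH side: GGTTTTTGTtgctggatatatCACTGTG
Ighd1-1, JH side: GGTTTTTGCtgatggatatagCACTGTG
These lie at chr12:114668711-114668738, chr12:114708877-114708904, chr12:114713583-114713610 and chr12:114720353-114720380, on the plus strand of mm9. The D5 signal is that of its closest mm9 segment, Ighd2-4, and has the same letters as that of Ighd2-3.

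The 16 libraries held 495413 junctions, 20305 to 50314 each. Replicates summed over a and b held 42222, 54953, 95157 and 66693 junctions without IAA and 57269, 52082, 69340 and 57697 with it. Read names placed replicates 1 and 2 in one sequencing run, called run A, and replicates 3 and 4 in another, called run B, so each run held both treatments. The runs stood apart before any treatment. Untreated, 11 of 23 tested segments differed between them (limma adjusted p under 0.05; 47.8% called, 7 higher and 4 lower in run B). That fit compared 2 replicates with 2, for which an exact permutation test allows no p-value below 0.333. Ighd2-3 held 6.92% and 6.61% of junctions in run A and 18.3% and 13.1% in run B. Bases were inserted at 77.6% and 77.3% of untreated junctions in run A and at 34.1% and 34.7% in run B. Identical junctions made up 30.8% and 33.9% of the lists in run A and 53.3% and 50.8% in run B. VH junctions beyond the first 500 kb were also scarcer in run B: 94.2% and 95.8% of VH junctions lay within it in run A, and 99.4% and 99.8% in run B. The main results are therefore also given within each run. Replicates 1 and 2 were only in run A, and replicates 3 and 4 only in run B. The part of the run thus cannot be told apart from other differences between these replicates.

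The VH share, the percentage of all junctions in the VH region (positions 114829805 to 117639092), was lower with IAA in run B and little moved in run A. Without IAA it was 3.71%, 4.36%, 5.82% and 5.82% in replicates 1 to 4. With IAA it was 3.72%, 4.03%, 3.56% and 3.56%. The untreated replicates of run B stood above the other 6, and all 4 treated replicates lay close together. The means were 3.72% ± 0.224 with IAA and 4.93% ± 1.06 without (SD, n = 4 each), a difference of −1.21 points that did not pass (two-sided exact permutation p = 0.0857; the smallest 4 against 4 replicates allow is 0.0286). The difference was −0.154 points in run A and −2.26 in run B. As same-numbered pairs it was lower in 3 of 4 (exact sign-flip p = 0.25; the smallest possible is 0.125). With identical junctions counted once it was −2.09 points (exact permutation p = 0.343), and without the first untreated replicate it was −1.61 (exact permutation p = 0.0286). That was the largest fall on leaving out replicates, and its p-value was the smallest that split allows. It left more untreated replicates of run B, where the untreated share was high, than of run A, so run and treatment were no longer balanced.

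**Figure D1:**
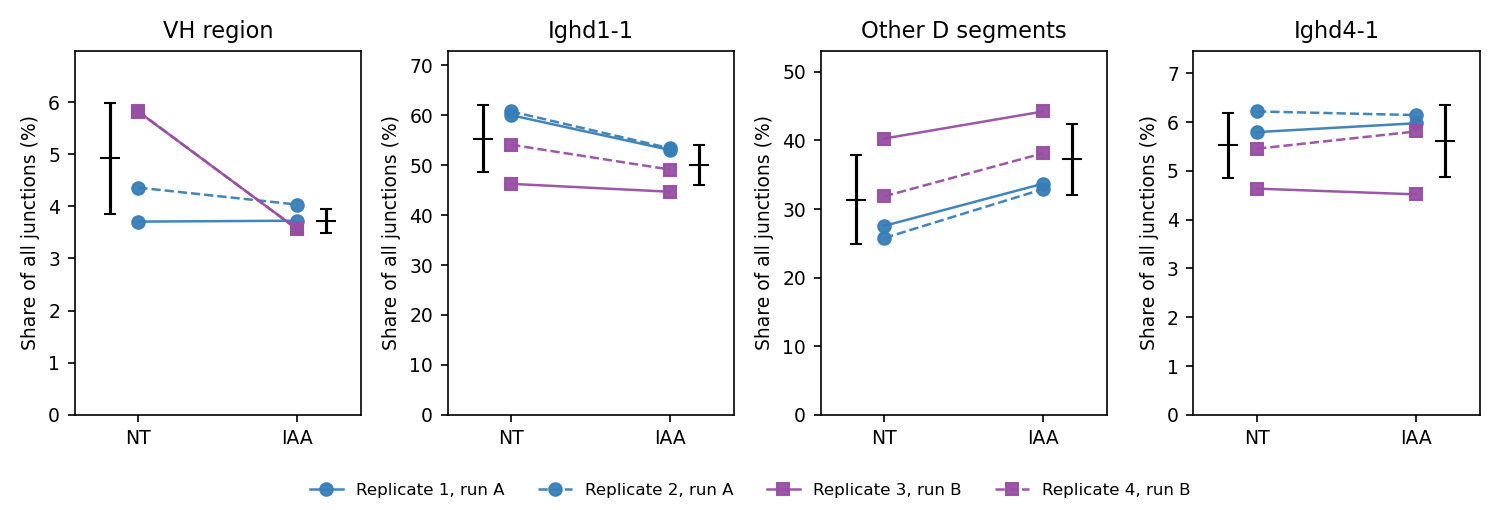
Share of all junctions (%) in each replicate without (NT) and with IAA for the VH region, Ighd1-1, the other D segments together and Ighd4-1; lines join same-numbered replicates, circles are run A and squares run B, and black bars give the mean and SD of 4 replicates. Ighd1-1 was lower and the other D segments were higher with IAA in all 4 pairs, while both untreated VH shares of run B were 5.82% against 3.56% with IAA.

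Within the D segments, the most used one was lower with IAA in every pair and the others together were higher, though neither difference passed as a share. Ighd1-1 lies at the far end of the main D group (chr12:114720381-114720403 in mm9). It held 59.996%, 60.7%, 46.3% and 54.1% of junctions without IAA and 53.0%, 53.3%, 44.7% and 49.1% with it. Every treated replicate lay below its pair, while the groups overlapped, also within run B, where untreated replicate 3 lay below treated replicate 4. The difference of −5.24 points did not pass (exact permutation p = 0.229; exact sign-flip p = 0.125). It was −7.19 points in run A and −3.28 in run B. The D segments other than Ighd1-1 and Ighd4-1 together held 27.6%, 25.8%, 40.3% and 31.9% without IAA and 33.7%, 32.9%, 44.2% and 38.1% with it. That share was higher in 4 of 4 pairs, by 5.89 points on average (exact permutation p = 0.229; exact sign-flip p = 0.125), 6.65 in run A and 5.12 in run B. Ighd4-1, nearest to JH (chr12:114668739-114668749 in mm9), held 5.79%, 6.22%, 4.63% and 5.45% without IAA and 5.97%, 6.14%, 4.52% and 5.81% with it. It was higher in 2 pairs and lower in 2, by 0.0857 points on average (exact permutation p = 0.857). Shares add up to all junctions, so a fall at 1 segment raises the others.

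Segment by segment, limma called 1 of 23 tested segments without the pairing (4.35% called, 6 at an unadjusted p under 0.05) and 13 of 23 with the replicate number as a block (56.5% called). In the blocked fit 7 were higher, all D segments, and 6 lower: the D segments Ighd6-1 and Ighd1-1 and 4 VH segments. Of 15 tested D segments, 12 had a log2 change above 0 in the blocked fit, and of 8 tested VH segments 7 had one below 0. The median log2 change was 0.14 over the D segments, −0.46 over the VH segments and 0.02 over all 23. Within run A alone 10 of 21 segments passed (47.6% called), 9 D segments higher and Ighd1-1 lower. Within run B alone 10 of 22 passed (45.5% called), 4 D segments higher, 5 VH segments lower and Ighd6-1 lower. Each fit within a run compared 2 replicates with 2, for which an exact permutation test allows no p-value below 0.333. The limma p-values of these fits thus rest on very few samples.

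**Figure D2:**
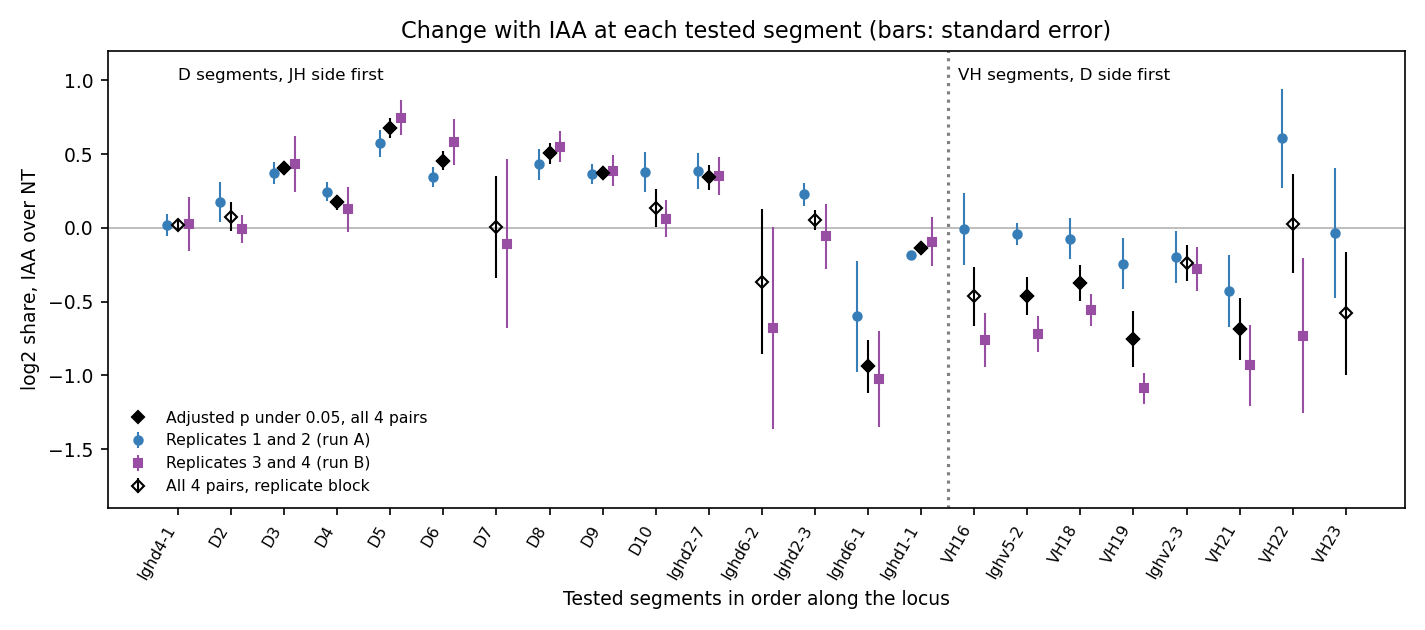
Change with IAA at the 23 tested segments, as log2 of the share with IAA over the share without, in order from JH; circles use replicates 1 and 2 (run A), squares replicates 3 and 4 (run B), diamonds all 4 pairs with the replicate block (filled where the adjusted p was under 0.05), and bars are standard errors. D3 to D6, D8, D9 and Ighd2-7 lie above 0 in both runs; Ighv5-2 changed by −0.04 in run A and −0.72 in run B.

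The D segments that rose were middle members of the group. D5, closest to Ighd2-4 of mm9 (99.1% identity), was the only segment past the threshold without the block. It held 1.14%, 1.14%, 1.36% and 1.16% of junctions without IAA and 1.67%, 1.73%, 2.18% and 2.04% with it. The groups did not overlap, and 8 of 8 library pairs were higher. Library pairs set a against a and b against b within a same-numbered pair, so they add no independent replicates. The log2 change was 0.66 (SE 0.15, limma adjusted p = 0.0220), or 0.68 (SE 0.07, limma adjusted p = 0.000221) with the replicate block. That call without the block was lost with identical junctions counted once (log2 0.53, limma adjusted p = 0.358), a setting in which limma called 0 of 23 without the block (3 had an unadjusted p under 0.05) and 12 with it. It was also lost without either of the untreated replicates 2 and 4, without any of the treated replicates 2, 3 and 4, and without pair 2 or 4, with limma adjusted p from 0.0504 to 0.315.

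D8, whose coding bases are those of D5, rose as well in the blocked fit. It held 0.898%, 0.988%, 1.22% and 1.13% without IAA and 1.26%, 1.32%, 1.69% and 1.74% with it (log2 0.50, SE 0.07, limma adjusted p = 0.000646 with the block). All 4 treated values lay above every untreated one. D3, the most used of the middle D segments, went from 6.81%, 6.03%, 8.19% and 6.89% to 8.40%, 8.24%, 10.9% and 9.31% (log2 0.40, SE 0.04, limma adjusted p = 0.000221 with the block). The groups again did not overlap, although treated replicates 1 and 2 lay just above the highest untreated value. D6 went from 2.81%, 2.60%, 2.03% and 1.58% to 3.38%, 3.46%, 2.90% and 2.45% (log2 0.45, SE 0.06, limma adjusted p = 0.000705 with the block).

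D9, D4 and Ighd2-7 rose by less. D9 had 3.26%, 3.06%, 1.75% and 1.68% without IAA and 4.13%, 3.99%, 2.29% and 2.19% with it (log2 0.37, limma adjusted p = 0.000320 with the block). Here the replicates of the runs differed by more than the treatments did, and the rise was log2 0.36 in run A and 0.39 in run B. D4 had a log2 change of 0.17 (limma adjusted p = 0.0218 with the block), with 0.24 in run A and 0.12 in run B, where it did not pass alone (limma adjusted p = 0.606). Ighd2-7 had a log2 change of 0.34 (limma adjusted p = 0.0118 with the block). Each of these 7 segments was higher in 4 of 4 pairs and in 8 of 8 library pairs, and none passed without the block except D5.

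Ighd2-3, which shares its far heptamer and nonamer with those 7, was the exception. It held 6.92%, 6.61%, 18.3% and 13.1% without IAA and 8.30%, 7.52%, 16.6% and 13.3% with it. The blocked log2 change was 0.06 (SE 0.07, limma adjusted p = 0.550), with 0.23 in run A (limma adjusted p = 0.0122) and −0.06 in run B (limma adjusted p = 0.923). Whether it differed from the other 7 was not tested. D10, closest to Ighd1-1 but at 76.4% identity, had a blocked log2 change of 0.14 (limma adjusted p = 0.434) and D2, closest to Ighd3-2, one of 0.08 (limma adjusted p = 0.550). D7 and Ighd6-2, with 48 and 60 untreated junctions over all replicates, did not pass in either fit.

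Ighd1-1 was lower in the blocked fit by log2 −0.14 (SE 0.03, limma adjusted p = 0.0118), and in 8 of 8 library pairs. With 2 replicates per group in each run, the change was −0.18 in run A alone (limma adjusted p = 9.14e-14) and −0.09 in run B alone (limma adjusted p = 0.761). Counted once per identical junction, the blocked call was lost (limma adjusted p = 0.0831). Ighd6-1, a rarely used D segment beside Ighd1-1, had 0.0687%, 0.0728%, 0.358% and 0.220% of junctions without IAA and 0.0437%, 0.0499%, 0.154% and 0.128% with it. The blocked log2 change was −0.94 (SE 0.18, limma adjusted p = 0.00416), resting on 557 untreated and 232 treated junctions, and the untreated share in run B was well above that in run A.

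The 4 VH segments that passed in the blocked fit lay among the 6 tested VH segments nearest to the D segments. Ighv5-2, known as VH81X and the most used VH here, held 1.81%, 2.23%, 3.33% and 3.57% of junctions without IAA and 1.88%, 2.07%, 2.02% and 2.19% with it. The untreated replicates of run B were the high ones. Its blocked log2 change was −0.47 (SE 0.13, limma adjusted p = 0.0180), with −0.04 in run A (limma adjusted p = 0.695) and −0.72 in run B (limma adjusted p = 0.00409). VH19, closest to Ighv5-4, held 0.272%, 0.338%, 0.566% and 0.574% without IAA and 0.258%, 0.259%, 0.271% and 0.263% with it. Its blocked log2 change was −0.75 (SE 0.19, limma adjusted p = 0.0120), with −0.24 in run A and −1.09 in run B. The difference of the IAA effect between the runs passed for these 2 of 23 segments (8.7% called): Ighv5-2 by log2 −0.69 and VH19 by −0.84 (limma interaction, adjusted p = 0.00998 each). This test was added after the runs were seen to differ.

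**Figure D3:**
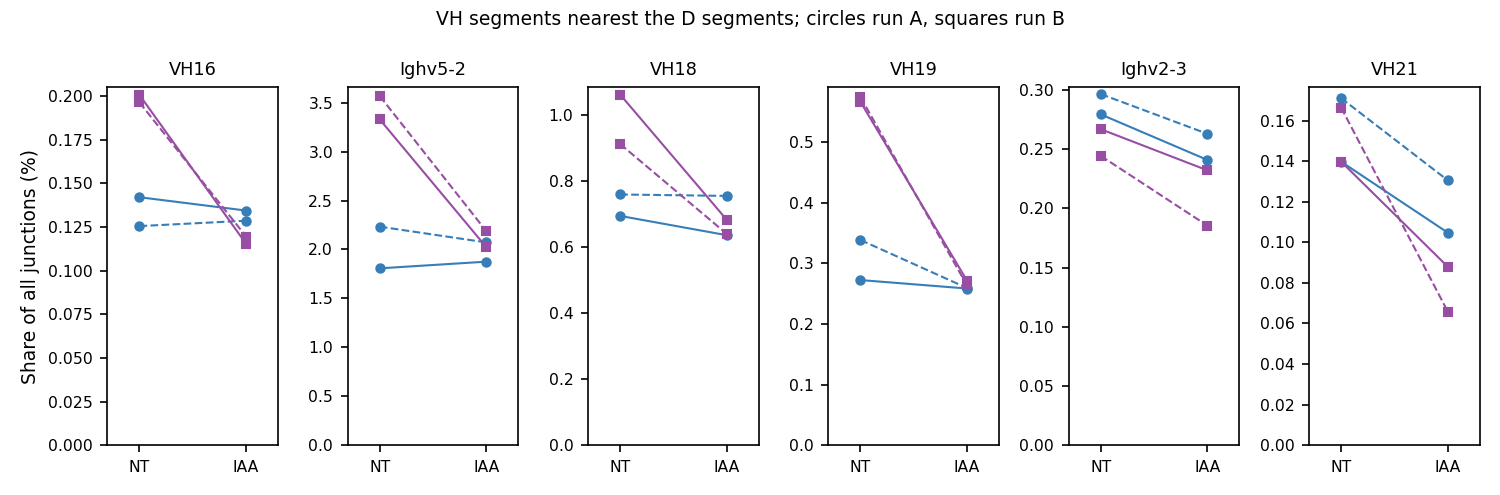
Share of all junctions (%) at the 6 named VH segments nearest to the D segments without (NT) and with IAA; lines join same-numbered replicates, circles are run A and squares run B, and each panel has its own axis from 0. Squares drop at all 6 segments, while circles lie close to level at VH16, Ighv5-2 and VH18.

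VH18, closest to Ighv2-2 (99.5% identity), went from 0.694%, 0.759%, 1.06% and 0.912% to 0.636%, 0.755%, 0.682% and 0.640% (blocked log2 −0.37, SE 0.12, limma adjusted p = 0.0330). VH21 went from 0.140%, 0.171%, 0.140% and 0.166% to 0.105%, 0.131%, 0.0880% and 0.0659% (blocked log2 −0.69, SE 0.21, limma adjusted p = 0.0248). VH21 was lower in both runs, and in 8 of 8 library pairs. VH16, the VH segment nearest to the D segments among those tested, had a blocked log2 change of −0.46 (limma adjusted p = 0.0840). Ighv2-3 had one of −0.24 (limma adjusted p = 0.132) and was lower in 4 of 4 pairs. Within the VH region, Ighv5-2 took 48.8%, 51.3%, 57.4% and 61.3% of VH junctions without IAA and 50.5%, 51.3%, 56.8% and 61.3% with it (difference 0.294 points; exact permutation p = 0.914).

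VH junctions carry a D segment inside the insertion, which can show which DJH join was used. A family was named where at least 8 bases matched that family alone. In single libraries this named 43.9% to 57.7% of junctions at VH segments, and the rest were not assigned. In run B it named 47.8% to 49.7% untreated and 43.9% to 45.8% treated. The Ighd1 family made up 38.7%, 34.8%, 17.6% and 25.9% of the D sequences recognised in untreated replicates and 29.2%, 28.4%, 17.6% and 23.0% in treated ones. The Ighd2 family made up 57.5%, 58.4%, 79.4% and 70.5% untreated and 64.8%, 64.4%, 80.5% and 74.6% treated. The Ighd1 family was lower in 4 of 4 pairs and the Ighd2 family was higher in 4 of 4 (differences −4.71 and 4.62 points; exact permutation p = 0.400 and 0.429; exact sign-flip p = 0.125 each, the smallest possible). Pair 3 of the Ighd1 family was almost level, at 17.59% untreated and 17.55% treated. Its a libraries went from 18.5% to 17.2% and its b libraries from 16.7% to 17.9%. At the DJH junctions above, Ighd1-1 was also lower and the other D segments higher in all pairs.

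Joints outside segments were few. The 5 kb upstream of Ighd1-1 held 1.60%, 1.48%, 1.13% and 1.02% of junctions without IAA and 2.06%, 2.07%, 1.38% and 1.44% with it. This share was higher in 4 of 4 pairs, by 0.427 points (exact permutation p = 0.171; exact sign-flip p = 0.125). The 6 most used sites there held 84.9% of its junctions. The leading site, 1.03 kb from Ighd1-1, had 0.561%, 0.526%, 0.408% and 0.411% of all junctions untreated and 0.843%, 0.870%, 0.584% and 0.593% treated. The site next in use, 3.66 kb away, had 0.249%, 0.213%, 0.306% and 0.235% untreated and 0.262%, 0.219%, 0.265% and 0.267% treated, lower in pair 3 and higher in the others. The site at 1.99 kb, the next in use after that, had 0.223%, 0.257%, 0.125% and 0.111% untreated and 0.311%, 0.394%, 0.180% and 0.153% treated. The sites at 1.03 and 1.99 kb were higher with IAA in 4 of 4 pairs, and no site was tested alone. The read start at 1.99 kb matched mm9 at a single place, and the sequence around the break at chr12:114722339-114722386 is shown with its heptamer in capitals.
Site 1.99 kb from Ighd1-1: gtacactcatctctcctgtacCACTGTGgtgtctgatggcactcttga
The letters CACTGTG stood directly before the break. They were searched on the plus strand around 4 matched sites, of which 1 held them. The leading site at 1.03 kb and the site at 3.18 kb were not among the matched sites. For windows of 27 bases, slightly longer than the search, 0.709% hold the letters on that strand and 1.14% on either strand. Those windows cover the whole stretch of mm9 from the first to the last D segment.

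Outside the D and VH regions, shares were below 1%. Junctions at Igk, the kappa light chain locus on chromosome 6, held 0.160%, 0.166%, 0.115% and 0.144% without IAA and 0.112%, 0.107%, 0.106% and 0.133% with it (difference −0.0319 points; exact permutation p = 0.0571; lower in 4 of 4 pairs). Other chromosomes held 0.0638%, 0.0910%, 0.191% and 0.174% untreated and 0.109%, 0.0760%, 0.298% and 0.460% treated (difference 0.106 points; exact permutation p = 0.314). The treated replicates of run B were the highest. Junctions in the D array in minus orientation, the unusual one, held 0.147% untreated and 0.107% treated, and were lower in 4 of 4 pairs (exact permutation p = 0.486).

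The form of the joints differed between the treatments in opposite directions in the runs, with no test passed. Joints with inserted bases, a form that terminal transferase can make by adding bases without a template, made up 77.6%, 77.3%, 34.1% and 34.7% of junctions without IAA and 79.5%, 79.3%, 29.1% and 28.1% with it. The difference was 1.95 points in run A and −5.73 in run B, with −1.89 over all (exact permutation p = 0.657). Joints in which bait and prey shared bases made up 13.4%, 13.6%, 46.1% and 44.1% untreated and 12.2%, 12.3%, 52.2% and 51.6% treated. Where bases were inserted at D segments, G and C made up 62.1%, 62.7%, 58.7% and 59.3% of them untreated and 62.5%, 62.4%, 59.9% and 59.6% treated.

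**Figure D4:**
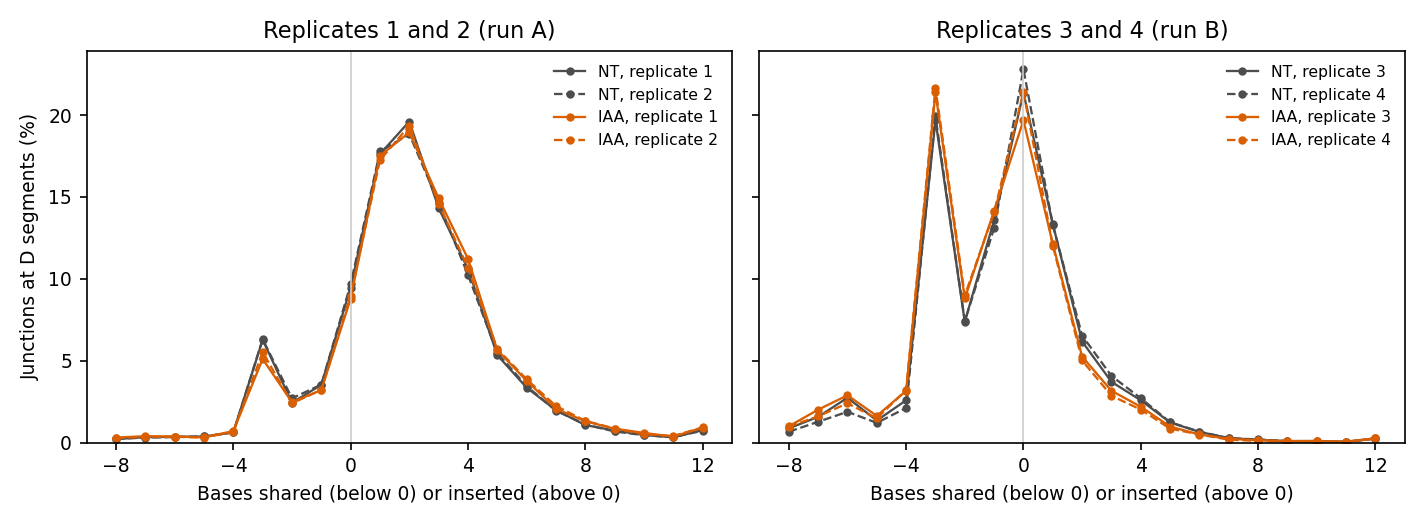
Percentage of D junctions by the number of bases that bait and prey share (below 0) or that were inserted between them (above 0), for each replicate of run A (left) and run B (right); grey is NT and orange IAA, and the end bins pool 8 or more shared and 12 or more inserted bases. Run A peaks at 2 inserted bases and run B at 0 and at 3 shared bases, with the treatments close together within each run.

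The most common joints between JH4 and Ighd1-1 are shown because their shares differed widely between the runs. Each line gives the bait end, then the start of Ighd1-1, with shared bases in capitals.
2 bait bases and 0 Ighd1-1 bases lost: tccatagcataGTAgctactaccgt
4 bait bases and 1 Ighd1-1 base lost: agtccatagcaTAGctactaccgta
8 bait bases and 0 Ighd1-1 bases lost, direct: cagtagtccatagcgtagctactaccgt
The first joint made up 4.58%, 4.41%, 14.4% and 14.2% of Ighd1-1 junctions without IAA and 3.85%, 3.90%, 15.7% and 15.4% with it. The second made up 3.15%, 3.18%, 11.9% and 11.3% untreated and 2.61%, 2.95%, 13.1% and 13.5% treated. The third made up 2.44%, 2.49%, 8.02% and 8.89% untreated and 2.18%, 2.20%, 9.75% and 9.48% treated. All 3 were lower with IAA in both pairs of run A and higher in both pairs of run B, and the difference of those directions was not tested. Less common joints did not all do so. The next in use, with 0 bait bases and 1 Ighd1-1 base lost, was lower with IAA in both runs. It made up 1.03%, 0.983%, 5.33% and 5.16% untreated and 0.738%, 0.817%, 4.73% and 4.62% treated. The joint after it, with 2 bait and 5 Ighd1-1 bases lost, was slightly higher in both runs.

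Trimming of the ends differed little between the treatments within a run. Mean loss from the bait end was 4.61, 4.56, 3.54 and 3.68 bases untreated and 4.69, 4.59, 3.57 and 3.66 treated. Mean loss from Ighd1-1 was 3.43, 3.503, 2.38 and 2.39 bases untreated and 3.55, 3.55, 2.30 and 2.33 treated. At Ighd4-1 the mean loss was 1.57, 1.59, 1.58 and 1.55 bases untreated and 1.60, 1.64, 1.60 and 1.63 treated. The Ighd4-1 values were the only ones of 31 measures whose groups did not overlap (3.23% called); the difference of 0.0441 bases had exact permutation p = 0.0286, the smallest possible, and a Benjamini-Hochberg value of 0.886. It was 0.0250 bases (exact permutation p = 0.714) with identical junctions counted once and 0.0258 (exact permutation p = 0.457) in b libraries alone. No measure of the 31 passed after adjustment.

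Control lines without OsTIR1 asked whether the same shifts occur when the receptor is absent. The parental line and a line with CTCF-mAID-GFP tagging alone carry the same Emu-Bcl2 and RAG2 alleles, and each had 4 replicates per treatment. The parental replicates 1 and 2 were in different runs with and without IAA; its replicates 3 and 4 were in run B, and the tagged line was in a single run, the one that also held the untreated parental replicates 1 and 2. The 7 D segments that rose in the OsTIR1 line with the block also rose with the block in both, as 7 of 9 segments called higher in the parental line (28.1% of 32 tested) and 7 of 11 in the tagged line (14.9% of 74 tested). D5 rose by log2 0.68 in the parental line and 0.63 in the tagged line, and D3 by 0.55 and 0.46 (limma adjusted p at most 1.49e-09 with the block). Ighd1-1 fell by log2 −0.22 and −0.19 (limma adjusted p = 3.89e-14 and 4.94e-09 with the block). Without the block, 8 segments were higher in the parental line, the 7 among them, and 0 in the tagged line, where limma left 4 of 74 at an unadjusted p under 0.05.

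**Figure D5:**
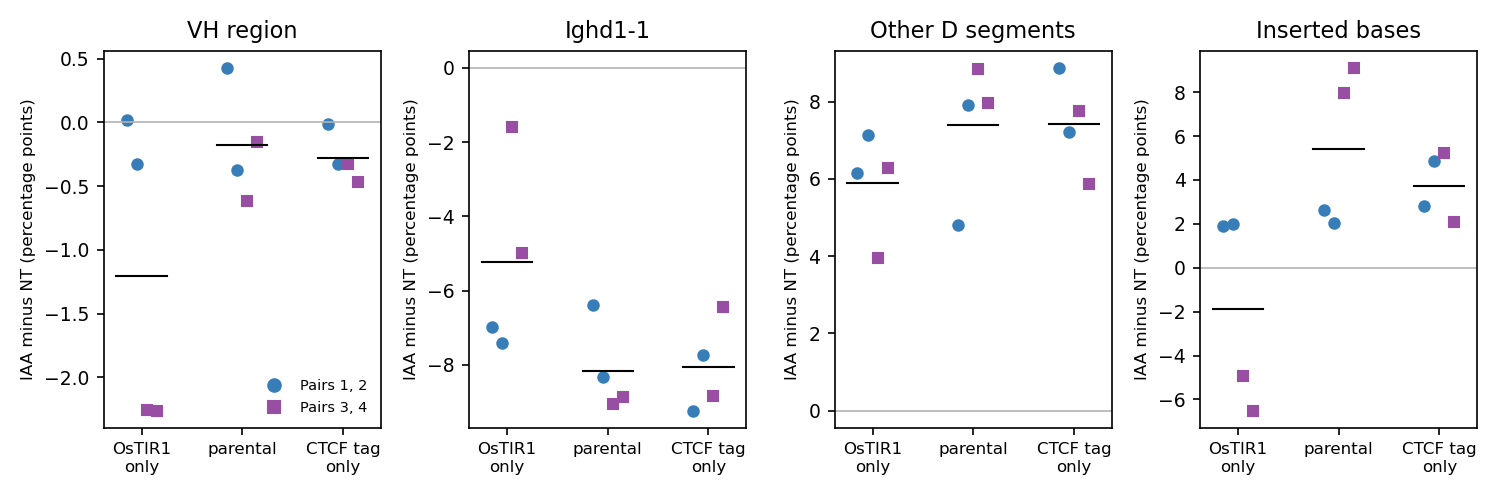
IAA minus NT in percentage points for each same-numbered pair of replicates in the OsTIR1-only, parental and CTCF-tag-only lines, for the VH share, Ighd1-1, the other D segments and the share of junctions with inserted bases; circles are pairs 1 and 2, squares pairs 3 and 4, and black lines are means of 4 pairs. Ighd1-1 was lower and the other D segments were higher in all pairs of all 3 lines, and inserted bases were rarer only in the squares of the OsTIR1-only line.

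Of the 6 segments lower in the OsTIR1 line with the block, 2 were called lower in the parental line, Ighd1-1 and VH18 (3 called lower, 9.38%), and 2 in the tagged line, Ighd1-1 and Ighv5-2 (2 called lower, 2.7%). Ighv5-2 changed by log2 0.09 in the parental line (limma adjusted p = 0.319) and −0.25 in the tagged line (limma adjusted p = 0.00949), with the block. The VH share as a log2 ratio of pairs was 0.01, −0.11, −0.71 and −0.71 in the OsTIR1 line, 0.17, −0.13, −0.17 and −0.04 in the parental line and −0.00, −0.16, −0.11 and −0.19 in the tagged line. The OsTIR1 mean lay below the others by 0.34 and 0.26 (exact permutation of line labels, p = 0.257 and 0.400; the lower Benjamini-Hochberg value was 0.367 over 10 tests). Within run B, the parental pairs 3 and 4 changed by −0.618 and −0.155 points and the OsTIR1 pairs by −2.25 and −2.26.

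The difference in the IAA effect between lines was tested for each segment as well. Against the parental line limma called 0 of 26 interactions (0% called; 5 had an unadjusted p under 0.05). Against the tagged line it called 1 of 51 (1.96% called), Ighd2-3, by log2 −0.30 (SE 0.07, limma adjusted p = 0.0335). Its blocked change was 0.06 in the OsTIR1 line, 0.32 in the tagged line and 0.20 in the parental line. The call was absent with identical junctions counted once, when limma called 0 of 46 against the tagged line (6 had an unadjusted p under 0.05) and 1 of 25 against the parental line. Without pair 1 of both lines, 5 of 28 segments passed against the parental line and 3 of 54 against the tagged line. That left more pairs of run B than of run A in the OsTIR1 line. Without pair 2, 1 of 26 passed against the parental line and 2 of 51 against the tagged line. Without pair 3 or without pair 4, 0 passed against either line.

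The share of junctions with inserted bases was compared between lines in percentage points, and the other measures as log2 ratios. The sizes of these gaps are thus on unlike scales and were not ranked. The share was higher with IAA by 2.61, 2.04, 7.97 and 9.11 points in the parental pairs and by 2.80, 4.88, 5.22 and 2.10 in the tagged pairs, and changed by 1.91, 1.99, −4.95 and −6.51 in the OsTIR1 pairs. Pairs 3 and 4 of the parental and OsTIR1 lines were in the same run and moved in opposite directions. The line difference was −7.32 points against the parental line and −5.64 against the tagged line (line labels exchanged among the 8 pairs, exact permutation p = 0.0286 for both, which no arrangement can undercut; Benjamini-Hochberg 0.143 over 10 tests). It rests on run B, since the pairs of run A moved upward as in the other lines. In run B the untreated parental replicates had insertions at 57.9% and 54.9% of junctions, against 34.1% and 34.7% in the OsTIR1 line.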

How the data were processed

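Junctions from a JH4 bait were read by linear amplification-mediated high-throughput genome-wide translocation sequencing. The deposited files list 1 junction per line with its positions, orientation and read sequence, and the authors gave no count table. Positions refer to a hybrid genome that joins mm9 with another sequence of the Igh locus, per the labels' protocols. Bowtie2 and mm9 are named in the submitters' processing notes; versions are not given in the sources used here.

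Junctions were tallied per replicate within 100 bp of segments. Segments were placed by sequence match to mm9 (blastn 2.17.0, at least 100 aligned bases and 95% identity for a name). Shares are the mean of the a and b libraries for regions and joint features, and of summed libraries for single segments. Segments with a mean of at least 10 junctions were tested with limma 3.58.1 (voom) in R 4.3.3, with Benjamini-Hochberg adjustment. The files hold lists and no counts column, so the tallies made here were the input. A separate count model was not fitted. Single measures had two-sided exact permutation tests over 4 against 4 replicates (70 arrangements) or sign flips of 4 pairs. The limma step without the block was tested on simulated data with no run difference and with changes larger than those called here. The fits with the block and within a run were not tested in this way.

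The replicate number was used as the block. Same-numbered replicates deviated together over 23 segments (correlations 0.655 to 0.870, mean 0.770). Differently numbered replicates of the same run did so too (correlations 0.673 to 0.849), so these values cannot tell the pairing from the run. The pairs share a sequencing run. Within runs the correlation was −0.0760 for replicates 1 and 2 and 0.217 for 3 and 4.

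Named segments were Ighd4-1 and Ighd1-1, those called in the fit without or with the block, Ighv5-2, the most D-proximal VH segment used in every untreated replicate, the 5 VH segments with the highest mean share, and the D segments. Members and lists were chosen with earlier results of these data known. Alternatives covered duplicates, a or b alone, filters, scaling, pseudocount, runs and left-out replicates. The fits within each run, the difference between runs, the combinations of the block with other settings, the D families in VH insertions, and the line comparisons of measures other than the VH share were chosen after seeing the data.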

Additional observations from a re-analysis of the deposited data

Results flagged for a closer look

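Among 76 groups of 4 replicates examined, 2 held a replicate far from the other 3, and chance gives about 1 in 20 groups. D5 held 1.36% of junctions in untreated replicate 3, above the other untreated replicates. Ighd6-2 held 0.0295% in treated replicate 4, above the other treated replicates, at a segment with 37 treated junctions in all. The effect of IAA at Ighd2-3 differed between the OsTIR1-only line and the line with the CTCF tag alone by log2 −0.30 (SE 0.07, limma interaction, adjusted p = 0.0335). The lines were sequenced in different runs, and the part of the run in that difference cannot be told apart.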

How the results depend on the processing

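Without the block, 1 of 23 segments was called. With the replicate block 13 were called, with the run as block 11, with identical junctions counted once 0 (12 with the block), with a minimum mean of 1 junction 0 of 65, with median-of-ratios scaling and the block 12, with replicates 1 and 2 only 10, with replicates 3 and 4 only 10, and with the block in a libraries 11 and in b libraries 14. Leaving out replicates gave 0 to 2 calls without the block. With the block it gave 6 to 12, with 6 without pair 4 and 9 without pair 1. The VH difference ranged from −1.61 to −0.854 points on leaving out replicates.

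Signs turned for small differences, and the cause was not tested. The Ighd4-1 share became −0.104 points (identical once) and −0.0141 (b), and −0.211 to 0.450 on leaving out replicates. Inserted joints became 1.95 points in run A, and −10.4 to 6.74 on leaving out replicates. Shared-base joints became −1.29 in run A, and −3.96 to 9.37. Bait loss became −0.0164 bases (once), and −0.155 to 0.218. Ighd1-1 loss became −0.0828 (once), −0.0249 (b) and −0.0737 (run B), and −0.201 to 0.217. Ighv5-2 within VH became −0.290 points in run B, and −1.82 to 2.49. On the log2 scale, Ighd4-1 became −0.0263 (once), −0.0242 (once with the block) and −0.00825 (b with the block), and −0.0616 to 0.128 on leaving out replicates. D2 became −0.00640 (once) and −0.00949 (run B), and −0.0718 to 0.254. D7 became 0.00554 with the replicate block, 0.0283 with limma trend and 0.00761 with median-of-ratios scaling and the block, and −0.323 to 0.172. Ighd2-3 became −0.0591 in run B, and −0.200 to 0.365. Depth limited D7 and Ighd6-2, with under 100 junctions each per group.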
